A study of Mus musculus with 2 samples.

Results

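The Notch pathway was followed through 8 genes in fetal lung cells: the receptors Notch1 and Notch2, the DNA-binding partner Rbpj, the targets Hes1 and Dtx1, and the ligands Dll4, Jag1 and Jag2. They were 8 of the 32285 genes counted and were found by their symbols. Hes1 and Dtx1 had been selected on their measured values in these cells, Hes1 because it was lower in group 2 innate lymphoid cells (ILC2s) of the treated litters and Dtx1 because it led a subset of them. These 2 genes are therefore described without a test in ILC2s, and so are the levels of all members across cell states.

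Wild-type C57BL/6J mothers drank water with dexamethasone (DEX) at 1.3 µg/ml, a synthetic glucocorticoid, or PBS from gestation day 12, and the fetal lungs were taken on gestation day 18. The lungs of each litter were pooled and marked with 1 hashtag antibody: DEX-1 (8 fetuses), DEX-2 (9 fetuses), PBS-1 (5 fetuses) and PBS-2 (8 fetuses). Live CD45+ lineage- ST2+ cells were sorted and sequenced together in 1 droplet library. The labels assign each hashtag to a mother of its own, and the pooled litter is taken as the unit of replication, 2 in each group. A legend of the study instead names 1 pregnant dam per group for this experiment. If so, the errors and p-values measure only the spread between pools of the same litter. An exact permutation test of 2 against 2 cannot go below p = 0.333.

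Notch receptors are cleaved when a neighbouring cell presents a Delta-like (Dll) or Jagged (Jag) ligand. The freed intracellular part joins RBPJ and Mastermind proteins on DNA and switches on targets such as the repressors of the Hes and Hey families. In lymphocytes the pathway is known for the choice of the T cell fate and for a part in early innate lymphoid development, and in vessels for the arterial programme.

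Of 7268 cells with 1 hashtag, 2076 (28.6%) were ILC2-like, between 455 and 578 in each litter, with 3794820 to 5211430 UMIs (molecules counted once) per litter and a median of 6601 to 7821 UMIs per cell. All 10 ILC2 markers were detected in them, with Gata3 in 88.5%, Il7r in 96.1%, Rora in 96.6% and Il1rl1, which encodes ST2, in 71.4% of cells, whereas Klrg1 was found in 5.97%. The other cells fell into basophil or mast-like (2773), epithelial-like (472), endothelial-like (280), macrophage or monocyte-like (250), mesenchymal-like (201) and B cell-like (199) classes and 3 unnamed clusters, so cell types outside the gate were also present. All cells came from 1 library, so no barcodes were shared between libraries. Levels are counts per 1000000 (CPM) of the UMIs of a litter in a class unless stated otherwise, and levels of different genes are not compared. Values of litters are given in the order DEX-1, DEX-2, PBS-1, PBS-2, and log2 differences are DEX minus PBS with their standard error after ±, over 2 litters in each group.

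In the mouse genome build GRCm38, Notch1 lay at chr2:26457903-26516663 (minus strand), Notch2 at chr3:98013527-98150361 (plus strand), Rbpj at chr5:53466152-53657362 (plus strand), Hes1 at chr16:30064384-30067796 (plus strand), Dtx1 at chr5:120680202-120711927 (minus strand), Dll4 at chr2:119325784-119335962 (plus strand), Jag1 at chr2:137081456-137116644 (minus strand) and Jag2 at chr12:112907819-112929776 (minus strand). All are protein-coding genes. Hes1, Dtx1 and Jag1 overlapped no other annotated gene. Notch1 and Dll4 overlapped noncoding transcripts on the other strand, Rbpj 2 antisense transcripts, Notch2 2 unconfirmed transcripts on its own strand, and Notch1 and Jag2 a microRNA each.

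RefSeq promoter windows (GRCm38.p6) were at hand for 7 of the 8 members, not for Hes1. In the 250 bases before the start, none of the 7 held the RBPJ motif GTGGGAA on either strand, which 5.42% of 32851 windows held, nor the glucocorticoid receptor palindrome (0.0091% of windows) or the GATA motif AGATAA (9.99%). The N-box CACNAG, a motif of Hes proteins, stood once in Notch1, Notch2, Dtx1 and Dll4, and in 36.7% of all windows. Both strands were searched, and no window of a member held more than 1 of these motifs. These are matches of letters only. Several windows were not upstream of the annotated gene. All 250 bases lay in exons of their own gene for Dtx1, Jag2 and 1 window of Rbpj. The other Rbpj window had 132 bases in exons and that of Jag1 had 124. The Notch1 window lay inside the gene bounds given above. The 2 windows shown had no base in an annotated exon of their gene and belong to Dll4, a ligand highest in endothelial-like cells, at chr2:119325534-119325783 (plus strand), and to Il2ra, a lymphoid target that was lower in the DEX litters, at chr2:11642542-11642791 (plus strand); capitals mark the N-box, and Il2ra held none of the motifs searched.
Dll4: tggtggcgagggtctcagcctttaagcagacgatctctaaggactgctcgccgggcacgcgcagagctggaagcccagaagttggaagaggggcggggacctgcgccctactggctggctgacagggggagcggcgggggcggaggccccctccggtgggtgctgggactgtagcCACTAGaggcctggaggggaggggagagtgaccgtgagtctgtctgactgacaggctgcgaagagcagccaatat
Il2ra: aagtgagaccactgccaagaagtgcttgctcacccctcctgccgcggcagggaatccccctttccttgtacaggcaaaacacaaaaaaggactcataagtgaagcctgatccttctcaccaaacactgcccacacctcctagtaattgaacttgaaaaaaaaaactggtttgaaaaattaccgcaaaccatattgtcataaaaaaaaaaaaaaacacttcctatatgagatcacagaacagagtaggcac

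Of the receptors, Notch2 was highest in the macrophage or monocyte-like and basophil or mast-like classes and was present in ILC2-like cells of every litter. In ILC2-like cells it stood at 48.4 and 51.6 CPM in the DEX litters and 49.8 and 50.1 CPM in the PBS litters, so the 4 litters were nearly level. Among the 7 classes Notch2 was highest in macrophage or monocyte-like cells (80.4 CPM over all litters) and basophil or mast-like cells (69.7 CPM), followed by ILC2-like (49.9 CPM), mesenchymal-like (39.2 CPM), epithelial-like (29.8 CPM), B cell-like (17.2 CPM) and endothelial-like cells (10.9 CPM). The litter ranges of macrophage or monocyte-like cells (60.8 to 92.6 CPM) and basophil or mast-like cells (67.7 to 70.7 CPM) overlapped, and those of basophil or mast-like and ILC2-like cells did not.

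Notch1 had another source. It was highest in endothelial-like cells, at 60.7 and 91.1 CPM in the DEX litters and 86.0 and 80.3 CPM in the PBS litters, then in macrophage or monocyte-like (39.1 CPM), mesenchymal-like (19.8 CPM), B cell-like (15.9 CPM) and basophil or mast-like cells (14.8 CPM). The endothelial range did not overlap that of macrophage or monocyte-like cells (35.5 to 46.7 CPM), whereas those of the next 3 classes overlapped. In ILC2-like cells it was lowest of the 7 classes, at 9.99 and 6.85 CPM in the DEX litters and 9.14 and 7.87 CPM in the PBS litters, though this range overlapped that of epithelial-like cells (8.57 to 14.5 CPM). After each cell had been thinned to 2000 UMIs, so that depth was equal, a Notch1 UMI was seen in 1.76% (36 of 2050 cells, 95% Wilson interval 1.27 to 2.42%) of ILC2-like and 12.6% (34 of 270 cells, 95% Wilson interval 9.15 to 17.1%) of endothelial-like cells. Intervals of such shares cover counting error only. Of the receptors outside the 8 genes, Notch4 was largely endothelial (49.0 against 1.02 CPM in ILC2-like cells) and Notch3 mesenchymal (26.6 against 0.340 CPM).

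**Figure D1:**
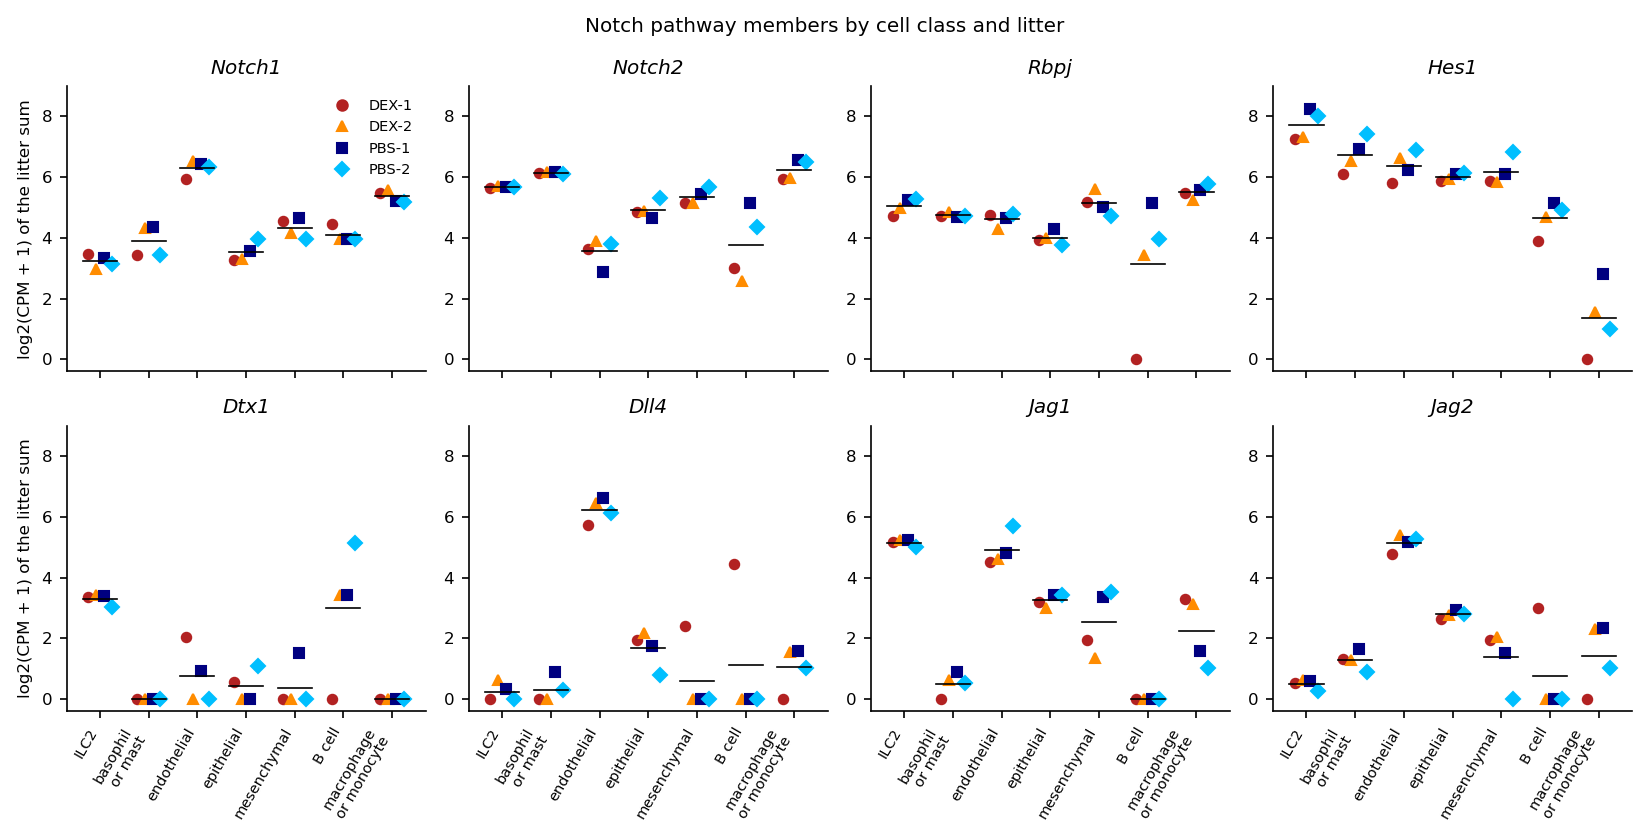
Level of the 8 Notch pathway genes in 7 cell classes, as log2(CPM + 1) of the UMIs summed per litter; each symbol is 1 litter (red and orange DEX, blue PBS) and the black bars are means of the 4 litters on that scale. Dll4 and Jag2 stand highest in endothelial-like cells, Jag1 in ILC2-like and endothelial-like cells, Notch1 in endothelial-like cells, and Hes1 in ILC2-like cells with both DEX litters below both PBS litters.

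The ligands had distinct sources. Dll4, which marks arterial and sprouting endothelium, reached 52.3 and 86.4 CPM in the DEX litters and 97.6 and 68.4 CPM in the PBS litters in endothelial-like cells and at most 3.97 CPM, from 3 UMIs in B cell-like cells, over all litters of any other named class. In ILC2-like cells 3 Dll4 UMIs were counted in all, which is at the limit of what these counts can show (0.170 CPM for 3 counts). Jag2 followed the same cells, at 26.2 and 40.9 CPM in the DEX litters and 34.9 and 37.6 CPM in the PBS litters in endothelial-like and 5.92 CPM in epithelial-like cells, against 0.397 CPM (7 UMIs) in ILC2-like cells. Dll1 was likewise endothelial (17.3 CPM, against 0.737 CPM in ILC2-like cells). A Dll4 UMI was seen in 13.0% (35 of 270 cells, 95% Wilson interval 9.47 to 17.5%) of endothelial-like cells thinned to 2000 UMIs and a Jag2 UMI in 8.52% (23 of 270 cells, 95% Wilson interval 5.74 to 12.5%). Among 270 such cells, the 161 with a UMI of an arterial marker (Gja5, Gja4, Efnb2 or Sox17) held Dll4 in 13.0% and Jag1 in 6.83%, and the 109 without held Dll4 in 12.8% and Jag1 in 0.917% (11 against 1 cells for Jag1). The 74 with a UMI of a venous marker held Dll4 in 18.9% and Jag1 in 10.8%, and the 196 without in 10.7 and 2.04%. By the capillary list Jag1 was in 2.44% of 205 cells with a marker and 10.8% of 65 without. By the lymphatic list it was in 1.97% of 152 and 7.63% of 118. Dll4 stood at 12.2 and 15.4% by the capillary list and at 13.2 and 12.7% by the lymphatic list. Jag2 was in 10.7% of cells with a capillary marker and 1.54% of those without. Many cells carried markers of more than 1 vessel type.

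Jag1 was the ligand that ILC2-like cells carried themselves. It stood at 34.6 and 36.4 CPM in the DEX litters and 36.3 and 30.9 CPM in the PBS litters in ILC2-like cells and at 22.0 and 23.4 CPM in the DEX litters and 26.9 and 50.5 CPM in the PBS litters in endothelial-like cells, whose range overlapped, and was lower in epithelial-like (8.59 CPM), mesenchymal-like (5.49 CPM), macrophage or monocyte-like (3.59 CPM) and basophil or mast-like cells (0.457 CPM). A Jag1 UMI was seen in 6.54% (134 of 2050 cells, 95% Wilson interval 5.55 to 7.69%) of ILC2-like cells thinned to 2000 UMIs, against 1 of 2532 basophil or mast-like cells (0.0395%) and 0 of 185 B cell-like cells, which allows up to 1.62% of cells with a UMI at this depth. Median depths before thinning were 7186, 6510 and 3528 UMIs. These shares differed beyond counting error. Endothelial markers summed to 36.3 to 43.1 CPM per litter in ILC2-like cells and to 3760.0 to 5557 CPM in endothelial-like cells. The part of endothelial transcripts in the Jag1 level of ILC2-like cells was not tested.

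Rbpj, through which all receptors act, varied least of the 8 genes between classes. It was highest in macrophage or monocyte-like cells (47.2 CPM), then mesenchymal-like (35.9 CPM), ILC2-like (32.5 CPM), basophil or mast-like (26.0 CPM), endothelial-like (24.1 CPM), B cell-like (15.9 CPM) and epithelial-like cells (15.2 CPM), and neighbouring classes in this order overlapped in their litters.

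Hes1, a transcriptional repressor, was highest in ILC2-like cells (218 CPM over all litters), followed by basophil or mast-like (111 CPM), endothelial-like (85.3 CPM), mesenchymal-like (70.5 CPM), epithelial-like (64.1 CPM) and B cell-like cells (26.5 CPM), and was near the limit of detection in macrophage or monocyte-like cells (2.25 CPM, 5 UMIs). The DEX litters of ILC2-like cells and the PBS litters of basophil or mast-like cells overlapped in Hes1. Dtx1, a ubiquitin ligase of the Deltex family and a Notch target in lymphocytes, was found in B cell-like cells (14.6 CPM, 11 UMIs) and ILC2-like cells (8.78 CPM, 155 UMIs). In 2773 basophil or mast-like cells no Dtx1 UMI was counted, which allows up to 0.152 CPM.

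Within ILC2-like cells, 5 states had 20 or more cells in every litter: state 0 led by Ctla2b, Ctla2a and Calca (779 cells), state 1 in mitosis (390), state 2 led by Cd7, Lgals3 and Ms4a4b (341), state 3 in DNA replication (291) and state 4 led by Pla2g7 (217). Hdc, Gata1 and Cpa3, genes of basophils and mast cells, were also among the leading genes of state 4. The wider Notch list had been kept out of the clustering, and levels across states are a description without a test. State 0 took 31.5 and 34.7% of the ILC2-like cells of DEX-1 and DEX-2 against 43.6 and 40.3% of PBS-1 and PBS-2, and state 2 took 20.7 and 22.9% against 12.0 and 11.1%.

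Dtx1 was found mainly in the Cd7 state. It stood there at 45.1 and 31.3 CPM in the DEX litters and 63.4 and 66.8 CPM in the PBS litters, and a UMI was seen in 7.44% of 336 thinned cells. In states 0 and 4 no Dtx1 UMI was counted, which allows up to 0.603 and 2.38 CPM, and the cycling states 1 and 3 held 6.07 and 1.03 CPM over all litters. The order of Hes1 differed. It was highest in state 4 (367 CPM) and state 0 (291 CPM), lower in state 3 (202 CPM) and state 1 (163 CPM), and lowest in the Cd7 state (145 CPM). Its level in state 4 lay above that of every basophil or mast-like cluster. Of the 29 thinned cells with a Dtx1 UMI, 4 (13.8%) also had a Hes1 UMI, against 32.4% of the 2021 cells without. Within the Cd7 state, which held 25 of the 29, the shares were closer, at 16.0% (4 of 25 cells) and 22.5% (70 of 311 cells).

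Jag1 was highest in state 0 (44.7 CPM) and the Cd7 state (38.7 CPM) and lowest in state 4 (14.3 CPM), where litters ranged from 6.31 to 21.7 CPM. Rbpj was likewise lowest in state 4 (13.5 CPM) and stood between 31.5 and 35.5 CPM in the other 4 states. In state 4 the litters of Rbpj ranged from 3.15 to 21.7 CPM and overlapped state 3. State 4 thus combined the highest Hes1 of the 5 states with the lowest Rbpj and Jag1, the latter from 17 and 18 UMIs. The basophil or mast-like clusters held Rbpj at 13.1 to 31.9 CPM and Jag1 at 0 to 0.672 CPM. The part of transcripts of such cells in state 4 was not tested. Notch2 stood between 39.4 CPM in state 3 and 56.4 CPM in state 4, a spread smaller than that between litters within state 4 (39.9 to 108 CPM). Notch1 stood between 7.15 and 11.1 CPM, with overlapping litters in every pair of states.

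**Figure D2:**
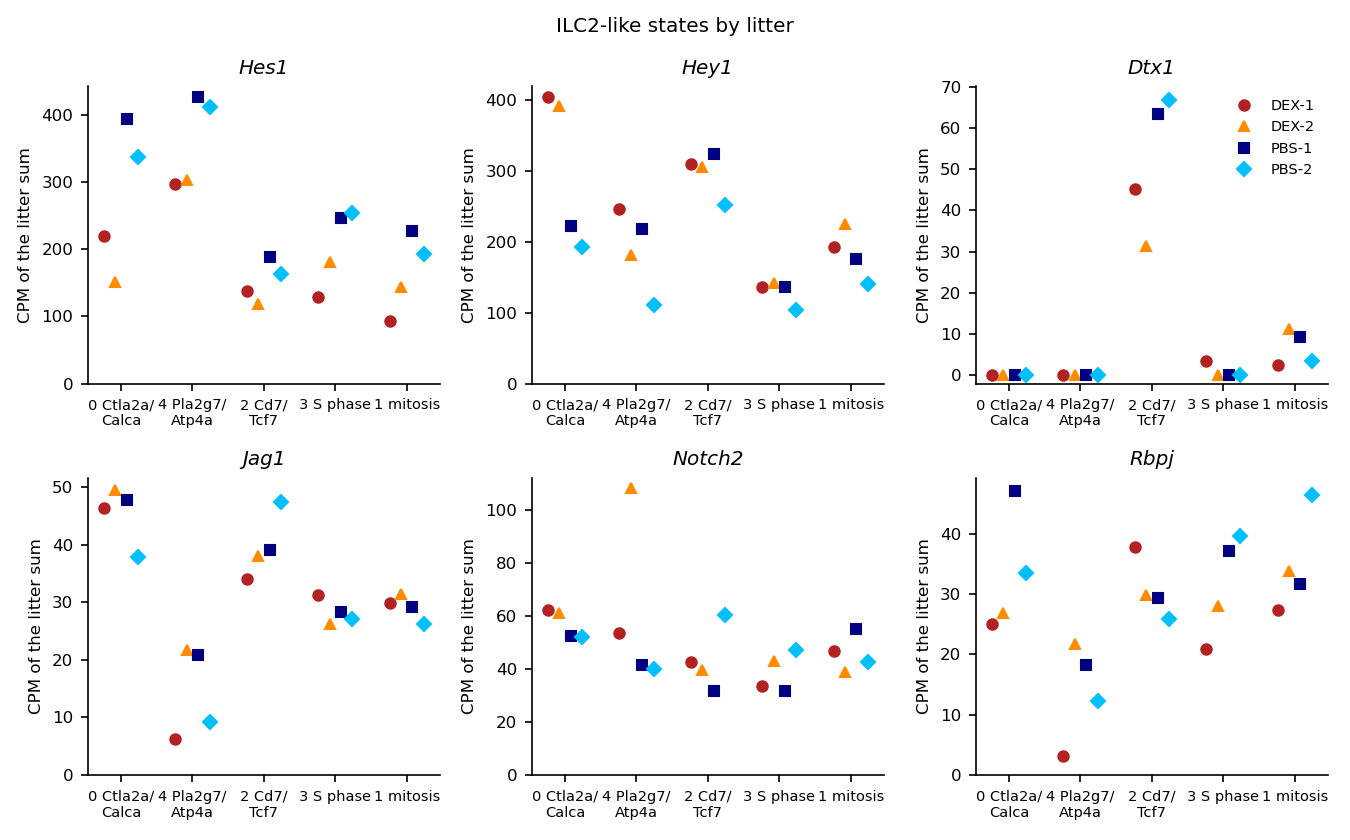
Level of 5 members and of the target Hey1 in 5 states of ILC2-like cells, in CPM of the UMIs summed per litter; each symbol is 1 litter. Hes1 is lower in both DEX litters in all 5 states, Hey1 is separated most clearly in state 0, and Dtx1 is found mainly in the Cd7 state, where both DEX litters lie below both PBS litters.

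The comparison of DEX with PBS litters asked which genes of the pathway differed in the ILC2s of exposed fetuses. Hes1 was lower in DEX litters, Hey1 was higher, and Mfng and Il2ra were lower, while the receptors, Rbpj and Jag1 did not pass the test. Across the 10644 genes tested with edgeR's quasi-likelihood test, 256 (2.41%) were called at an adjusted p under 0.05, 119 higher and 137 lower (422 without PBS-2), and in 42.3% of genes the 2 DEX litters did not overlap the 2 PBS litters.

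Hes1 stood at 151 and 158 CPM in the DEX litters and 299 and 259.8 CPM in the PBS litters in ILC2-like cells, so both DEX litters lay well below both PBS litters, with a log2 difference of -0.85 ± 0.085. It was chosen for this difference, and no test is given. After thinning to 2000 UMIs a Hes1 UMI was seen in 25.1 and 22.4% of ILC2-like cells of DEX-1 and DEX-2 and in 42.0 and 38.1% of PBS-1 and PBS-2, against 3.24% of B cell-like cells. The gap was present in each of the 5 larger states, and the groups overlapped in none of them. In state 0 Hes1 stood at 219 and 152 CPM in the DEX litters and 394 and 338 CPM in the PBS litters. In state 4, where it was highest, it stood at 296 and 303 CPM in the DEX litters and 426 and 411 CPM in the PBS litters, and in the Cd7 state, where it was lowest, at 138 and 118 CPM in the DEX litters and 188 and 164 CPM in the PBS litters. The gap was thus smaller in the Cd7 state than in state 0. In the mitotic state it stood at 93.1 and 143 CPM in the DEX litters and 227 and 193 CPM in the PBS litters, and in the replicating state at 128 and 182 CPM in the DEX litters and 246 and 254 CPM in the PBS litters. State 4 took 10.7, 7.91, 13.4 and 9.69% of the ILC2-like cells of the litters. With the 5 states given equal shares, so that their makeup was the same in all litters, the log2 difference was -0.68.

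Hey1, a repressor of the related Hey family, went the other way. It stood at 253 and 270.4 CPM in the DEX litters and 204 and 158 CPM in the PBS litters in ILC2-like cells, with no overlap, a log2 difference of 0.55 ± 0.10 and an adjusted p of 0.0114. Hey1 is on the list of DEX-exposure genes that the study drew up from these cells, so this is not independent evidence of its direction. It was higher in both DEX litters in states 0, 1 and 3, though in state 3 DEX-1 stood at 136.6 and PBS-1 at 136.2 CPM. The separation was widest in state 0, with 405 and 392 CPM in the DEX litters and 222 and 194 CPM in the PBS litters, whereas in the Cd7 state the litters overlapped at 309.7 and 306 CPM in the DEX litters and 324 and 252 CPM in the PBS litters. A Hey1 UMI was seen in 34.4 and 40.1% of thinned cells of the DEX litters and in 29.2 and 27.0% of the PBS litters, against 0.198% of basophil or mast-like cells. Endothelial marker genes also summed higher in DEX ILC2-like cells, at 43.1 and 42.7 CPM in the DEX litters and 36.3 and 39.5 CPM in the PBS litters, with all 6 detected, and their part in the result was not tested. Over all litters Hey1 stood at 218 CPM in ILC2-like cells and at 139 CPM in endothelial-like cells.

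A Hey1 UMI was about as frequent in cells with a Hes1 UMI as in those without, taken over all states. Of the 658 thinned cells with a Hes1 UMI, 31.6% held a Hey1 UMI, against 32.8% of the 1392 cells without, while in the mitotic state the shares were 23.7% of 97 and 35.3% of 292 cells. Of the other direct targets, Nrarp, a feedback inhibitor, stood at 8.95 CPM in ILC2-like cells with a log2 difference of 0.021 ± 0.26 and an adjusted p of 0.991. Heyl and Hey2 at 0.170 and 0.510 CPM were too low to test, and no Hes5 UMI was counted.

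Dtx1 overlapped between the groups over all ILC2-like cells but not within its main state. Summed over all ILC2-like cells it stood at 9.35 and 9.75 CPM in the DEX litters and 9.40 and 7.10 CPM in the PBS litters, with overlapping litters and a log2 difference of 0.23 ± 0.24. Within the Cd7 state, which held a larger share of DEX cells, both DEX litters lay below both PBS litters (values above), and with equal state shares the log2 difference was -0.61. These Cd7-state values rest on 37, 23, 26 and 31 UMIs in DEX-1, DEX-2, PBS-1 and PBS-2, and no test is given.

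Of the remaining members, Notch2 had a log2 difference of 0.0039 ± 0.11 (adjusted p = 0.994), Notch1 of 0.019 ± 0.26 (adjusted p = 0.991) and Jag1 of 0.089 ± 0.14 (adjusted p = 0.88), and in all 3 the litters overlapped. Rbpj stood at 25.3 and 30.3 CPM in the DEX litters and 36.6 and 37.6 CPM in the PBS litters, without overlap, with a log2 difference of -0.42 ± 0.15 that did not pass (adjusted p = 0.205). With each cell thinned to 2000 UMIs its log2 difference was 0.069, on the other side of 0. Rbpj and Hes1 are also on the list of proliferation genes used by the study. Dll4 and Jag2 were too low to be tested in these cells.

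The wider list of 62 pathway genes was read by role. In ILC2-like cells 48 of the 62 passed the filter on low counts, and besides Hes1, which was chosen for its difference and is not counted, 3 of them were called, Hey1 higher and Il2ra and Mfng lower, beside the 2.41% of all genes called. With Hes1 and Dtx1 included as descriptions, in 16 of the 48 the DEX litters were both higher than the PBS litters and in 10 both lower, beside the 42.3% of all genes without overlap. The median log2 difference of the 48 was 0.0226, against -0.0022 for all genes tested. No gene was called among the 2 receptors, 1 ligand, 6 genes of the nuclear complex, 7 corepressors, 9 genes of proteolytic release, 3 ligand ubiquitin ligases and 8 regulators that passed the filter, Dtx1 among the regulators being a description. The 3 calls lay in the direct targets (4 past the filter, Hes1 and Dtx1 among them, and Hey1 higher), the lymphoid targets (5 past the filter, 1 lower) and the glycosylation enzymes (5 past the filter, 1 lower). The nearest to the threshold besides Lfng were Psen2, a catalytic subunit of gamma-secretase, at -0.34 ± 0.096 (adjusted p = 0.102), and Tcf7, the transcription factor TCF-1, at 0.50 ± 0.15 (adjusted p = 0.138). Of the Mastermind genes, which encode coactivators of the Notch complex, Maml1 had a log2 difference of 0.048 ± 0.21, Maml2 of -0.29 ± 0.17 and Maml3 of 0.50 ± 0.21, with adjusted p-values of 0.972, 0.537 and 0.33.

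**Figure D3:**
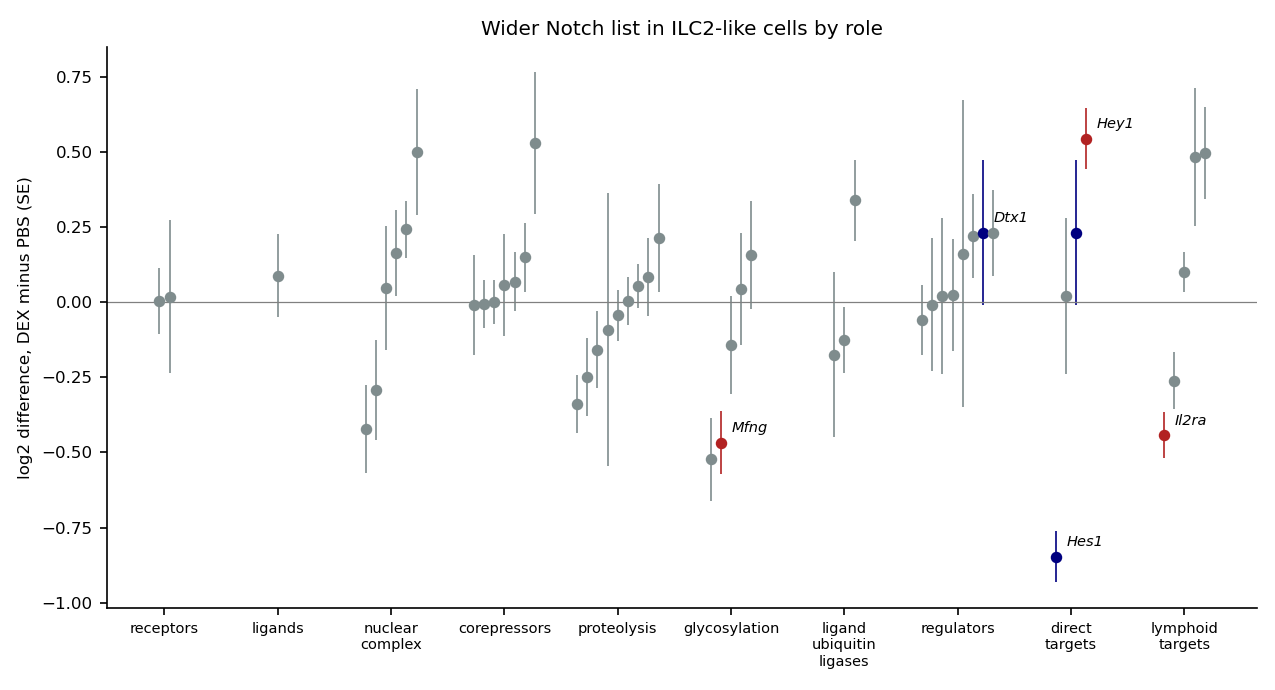
Log2 difference between DEX and PBS litters (SE as bars) for the 48 genes past the filter of the wider Notch list in ILC2-like cells, grouped by role; red points passed at an adjusted p under 0.05, blue points (Hes1 and Dtx1, each shown under every role it has) are descriptions without a test, grey points did not pass. Most points lie close to 0, with Hey1 above and Hes1, Mfng and Il2ra below.

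Mfng encodes a Fringe glycosyltransferase, which adds sugars to Notch receptors and alters their response to ligands. It stood at 56.1 and 55.3 CPM in the DEX litters and 84.1 and 71.2 CPM in the PBS litters. The log2 difference was -0.47 ± 0.11, with an adjusted p of 0.0343. Mfng was lower in both DEX litters in all 5 larger states, though some margins were small. In the Cd7 state DEX-2 stood at 70.7 and PBS-2 at 71.1 CPM. In the mitotic state DEX-1 stood at 49.5 and PBS-2 at 50.3 CPM. Its call was not stable: DESeq2 gave an adjusted p of 0.280, and the call was lost under 7 of the alternatives with a test, 3 of which leave out DEX-1 (0.0602), DEX-2 (0.0901) or PBS-1 (0.169). Lfng, the second Fringe gene, stood at 35.1 and 33.5 CPM in the DEX litters and 56.1 and 43.6 CPM in the PBS litters with a log2 difference of -0.52 ± 0.14 and did not pass (adjusted p = 0.0748); it is on the study's activation list. Rfng, the third, had a log2 difference of 0.044 ± 0.19.

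Il2ra, the alpha chain of the interleukin-2 receptor and a marker of ILC2s, stood at 253 and 263 CPM in the DEX litters and 372 and 333 CPM in the PBS litters, with a log2 difference of -0.44 ± 0.077 and an adjusted p of 0.00742. It was also 1 of the 10 markers that named the class. Both DEX litters were lower in 3 of the 5 larger states, among them the mitotic state with 215 and 195 CPM in the DEX litters and 304 and 298 CPM in the PBS litters, while in state 0 the litters overlapped at 386 and 404 CPM in the DEX litters and 437 and 390.3 CPM in the PBS litters. It was lowest in the Cd7 state (147 CPM), which took a larger share of DEX cells. Its call was lost when cells were thinned to 2000 UMIs (log2 difference -0.30, adjusted p = 0.256). Tcf7, Myc, Gata3 and Igf1r, the other lymphoid targets tested, did not pass.

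Markers of other cell types were present at low levels in ILC2-like cells. Of the 15 other marker lists, the summed level was higher in both DEX litters for 5 (dendritic cell, endothelial, eosinophil, macrophage or monocyte, mesenchymal), with the mesenchymal list at 11.7 and 14.2 CPM in the DEX litters and 7.11 and 6.91 CPM in the PBS litters, and lower in both for 2, the B cell list and the epithelial list at 286 and 287 CPM in the DEX litters and 335 and 324 CPM in the PBS litters. The erythroid list stood at 191 and 8.17 CPM in the DEX litters and 11.4 and 8.63 CPM in the PBS litters, so DEX-1 stood apart. Their part in the results was not tested.

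Outside the ILC2s, the members were tested, since these cells had not been used to choose them. The cells came from the same litters and library, however. For Hes1, chosen as lower in the ILC2s of the DEX litters, these tests are therefore not independent of the choice. In basophil or mast-like cells Hes1 was again lower in both DEX litters, by a like amount, but did not pass over all genes. Hes1 stood at 67.8 and 90.5 CPM in the DEX litters and 121 and 170.2 CPM in the PBS litters there, without overlap, with a log2 difference of -0.86 ± 0.20, an unadjusted p of 0.00320 and an adjusted p of 0.999. No gene was called in this class (0 of 10892, 0%), and DESeq2 called 6. An unadjusted p under 0.05 was reached by 432 genes, a smaller share than that threshold gives by chance alone. Without DEX-2, which left DEX-1 alone in its group, the log2 difference of Hes1 was -1.09. With each litter left out in turn it lay between -1.09 and -0.59, the latter without PBS-2. The DEX difference of Hes1 in ILC2-like minus that in basophil or mast-like cells was 0.023 ± 0.21 on the log2 scale.

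The basophil or mast-like class joins clusters with very different Hes1. In the cluster led by H19 and Mcpt2 (1377 cells) Hes1 stood at 89.2 and 126 CPM in the DEX litters and 181 and 208 CPM in the PBS litters, and in the cluster led by Syngr1 and Cma1 (768 cells) at 49.6 and 74.2 CPM in the DEX litters and 121 and 190.2 CPM in the PBS litters; neither overlapped. In the cluster led by Mrgprb1 (168 cells) the litters overlapped at 40.1 and 129 CPM in the DEX litters and 104 and 87.7 CPM in the PBS litters, and in the cluster led by Ccl4 and holding Mcpt8, a basophil protease (460 cells), Hes1 was low throughout at 11.6 and 2.29 CPM in the DEX litters and 6.91 and 8.66 CPM in the PBS litters. That last cluster held 88 and 167 cells of DEX-1 and DEX-2 and 146 and 59 of PBS-1 and PBS-2, and with it left out the log2 difference of Hes1 in the class was -0.84 (adjusted p = 0.362). The unnamed cluster led by Gzmb and Scin (451 cells) stood at 102 and 100.3 CPM in the DEX litters and 217 and 189.5 CPM in the PBS litters, again without overlap.

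**Figure D4:**
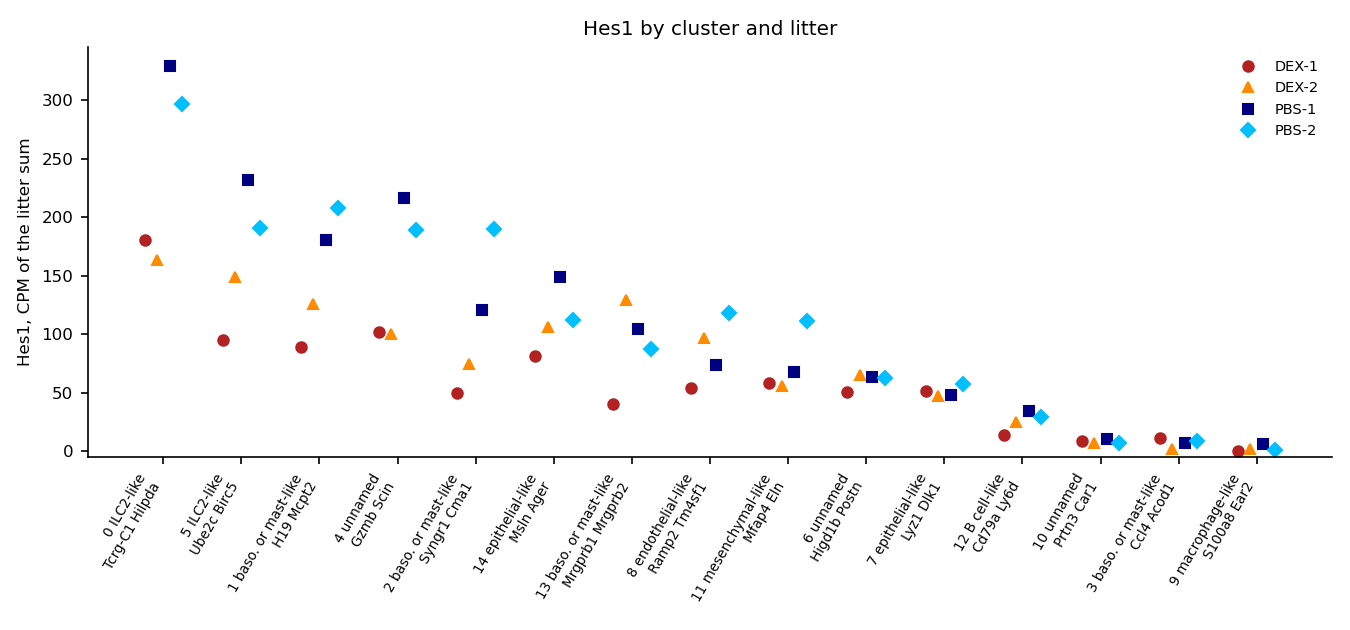
Hes1 in the 15 clusters with 50 or more cells, in CPM of the UMIs summed per litter; each symbol is 1 litter, and clusters are ordered by their level over all litters and named by their class and 2 leading genes. Both DEX litters lie below both PBS litters in 8 of the 15 clusters, and the groups overlap in 7. The 8 include the ILC2-like clusters, where Hes1 was chosen for this difference. Hes1 lies under 10 CPM in 3 clusters.

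Over the 13 clusters outside ILC2-like cells, both DEX litters lay below both PBS litters in 6 for Hes1 and above them in 0. Of 6398 genes with a mean of 20 CPM or more in these clusters, 73 (1.14%, Hes1 included) were below at least as often and above in none. The clusters share their litters and are not independent. Hes1 was chosen as lower in the ILC2s of these same DEX litters, so the 1.14% does not measure how rare its pattern is. Hes1 in mesenchymal-like cells stood at 58.2 and 55.7 CPM in the DEX litters and 68.1 and 112 CPM in the PBS litters (log2 difference -0.65 ± 0.30, adjusted p = 0.999), in endothelial-like cells at 54.4 and 96.9 CPM in the DEX litters and 73.4 and 118 CPM in the PBS litters (-0.31 ± 0.34, adjusted p = 0.998) and in epithelial-like cells at 58.1 and 60.7 CPM in the DEX litters and 67.9 and 68.9 CPM in the PBS litters (-0.14 ± 0.13, adjusted p = 0.911). In endothelial-like cells its direction rested on single litters: without DEX-1 the log2 difference was 0.072 and without PBS-2 it was 0.086.

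**Figure D5:**
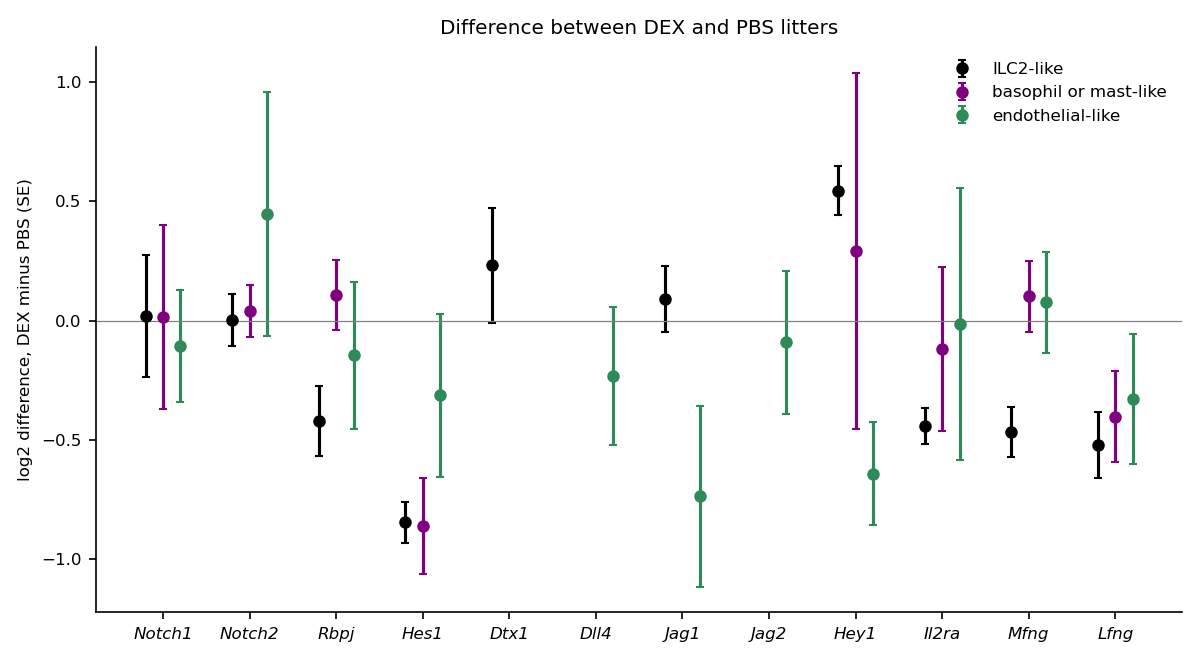
Log2 difference between DEX and PBS litters (points) with its standard error (bars) for the members and 4 genes of the wider list in ILC2-like, basophil or mast-like and endothelial-like cells; genes too low to test in a class, or with a standard error of 1 or more, have no point. Hes1 lies at -0.85 in ILC2-like cells and at -0.86 in the basophil or mast-like class, and Hey1 lies above 0 in ILC2-like and below 0 in endothelial-like cells.

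The ligand-bearing endothelial-like cells were compared on 280 cells, and no gene was called (0 of 8881, 0%; 336 with an unadjusted p under 0.05; 1 called by DESeq2), although leaving out PBS-1 or PBS-2 gave 67 and 57. Dll4 had a log2 difference of -0.23 ± 0.29, Jag2 of -0.092 ± 0.30 and Jag1 of -0.74 ± 0.38, with adjusted p-values of 0.998, 0.998 and 0.998. Jag1 was lower in both DEX litters, but PBS-2 alone (50.5 CPM) stood apart from the other 3 (22.0 to 26.9 CPM), and without it the log2 difference of Jag1 was -0.19. In these endothelial-like cells the 7 epithelial markers, all detected, summed to 545 and 508 CPM in the DEX litters and 489 and 4299.9 CPM in the PBS litters, and the 10 basophil or mast markers to 3429 and 7528 CPM in the DEX litters and 797 and 7928 CPM in the PBS litters. PBS-2 thus also stood apart in epithelial markers, and their part in the endothelial results was not tested. The litters overlapped in Dll4 and Jag2, and without DEX-1 the log2 differences were 0.11 and 0.23. Of the receptors, Notch1 had a log2 difference of -0.11 ± 0.24 and Notch4 of -0.38 ± 0.23, neither past the test. Hey1, the target that was higher in DEX ILC2-like cells, stood at 108 and 102 CPM in the DEX litters and 203 and 131 CPM in the PBS litters in endothelial-like cells, lower in both DEX litters, with a log2 difference of -0.64 ± 0.22 that did not pass (adjusted p = 0.998).

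In epithelial-like cells 3 of 11153 genes were called (0.0269%), Hp and Cbr2 lower and Acod1 higher, named after their values were seen, and none of the 48 list genes past the filter. In mesenchymal-like cells 0 of 7648 were called (0%; 310 with an unadjusted p under 0.05; 0 by DESeq2), although leaving out PBS-1 gave 167. Among the members tested there, Jag1 in epithelial-like cells had a log2 difference of -0.32 ± 0.31, and Rbpj in mesenchymal-like cells one of 0.55 ± 0.34, neither past the test. In the test of whether the DEX difference itself differed between the basophil or mast-like class and ILC2-like cells, 6 of 11810 genes (0.0508%) passed, none of them on the list. For Rbpj, lower in DEX ILC2-like cells and level in basophil or mast-like cells (25.0 to 28.0 CPM), the difference of the differences was -0.51 ± 0.20, with an unadjusted p of 0.0241 and an adjusted p of 0.919.

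The genes whose pattern was most like each member were listed as a description. Over the 20 sums of 4 litters in 5 ILC2-like states, Dtx1 was closest to Cd47 (r = 0.94), Ripor2 (r = 0.94), S1pr1 (r = 0.94). Hes1 was closest to Enah (r = 0.91), Gm6213 (r = 0.91), Galnt7 (r = 0.88). Rbpj was closest to Psmg3 (r = 0.87), Rspry1 (r = 0.81), Stk16 (r = 0.80), Notch2 to Tpsb2 (r = 0.79), Cma1 (r = 0.77), Mbd6 (r = 0.77) and Notch1 to Smad4 (r = 0.78), Pdcd2 (r = 0.70), Man1a2 (r = 0.66). Tpsb2 and Cma1 are mast cell proteases, and basophil or mast markers summed to 400.5 and 529 CPM in the DEX litters and 406 and 401 CPM in the PBS litters in ILC2-like cells. Over the 15 clusters, Dll4 was closest to Mmrn2 (r = 0.996), Tmem255a (r = 0.994), Gpr182 (r = 0.993), Jag2 to 2900026A02Rik (r = 0.98), Asap2 (r = 0.97), Caskin2 (r = 0.95), and Jag1 to Camk4 (r = 0.96), Hey1 (r = 0.94), Myo6 (r = 0.92). The points of each correlation share 1 library, and those over states share the 4 litters.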

How the data were processed

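Cells of 4 litters were labelled with hashtag antibodies and sequenced as a gene library and a hashtag library. The authors deposited 1 matrix of UMI counts from Cell Ranger (version 7 and genome build mm10 in the submitters' processing notes), with 32285 genes, 4 hashtags and 10648 barcodes. Whether counting used strand was not given in the sources used here.

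From these counts, barcodes with 200 or more genes and at most 5% mitochondrial UMIs were kept (10409), and litters were called with HTODemux (Seurat 5.3.0), which left 7268 singlets; doublets within a litter were not removed. Cells were clustered with scanpy 1.11.5 (2000 variable genes, 329 genes of the Notch list and of the study's lists and sex-linked genes kept out, 20 components, resolution 0.5), and classes were rebuilt from marker lists, so that names can differ from those of the study. States are the clusters within ILC2-like cells. Shares of cells were taken after thinning to 2000 UMIs, with 95% Wilson intervals, and a count of 0 was read as an upper limit of 3 counts.

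UMIs were summed per litter and class and tested with edgeR 4.0.16 (TMM, filterByExpr, quasi-likelihood F-test, two-sided, Benjamini-Hochberg over all genes tested, called at an adjusted p under 0.05). The difference between classes was an interaction with litter as a term. The steps were tested on simulated data. CPM values are per litter without TMM factors. All 8 members, each called gene of the wider list of 62 and the 3 genes most like each member were named. Likeness was Pearson's r of log2(CPM + 10). Alternatives were another scaling, DESeq2 1.42.0, limma-voom 3.58.1, no filter, a replicate block, other hashtag and cell filters, thinning and leaving out each litter. The members and lists were chosen with earlier results of these data known. Gene positions are those of GENCODE M21.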

Additional observations from a re-analysis of the deposited data

Results flagged for a closer look

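In 3 comparisons every DEX litter moved one way in ILC2-like cells and the opposite way in another class, against the PBS litters. Hey1 was higher in both DEX litters in ILC2-like cells and lower in both in endothelial-like and in mesenchymal-like cells, so that the log2 difference in ILC2-like cells exceeded the endothelial one by 1.19 and the mesenchymal one by 1.07. Rbpj was lower in both DEX litters in ILC2-like cells and higher in both in mesenchymal-like cells, with a difference of the log2 differences of -0.97. These 3 were selected for this pattern, and the differences between classes were not tested. In ILC2-like cells alone the litters of the groups did not overlap in 42.3% of all genes. How many of all genes move in opposite ways between classes was not counted. The mesenchymal Hey1 values rest on 13, 11, 12 and 14 UMIs in DEX-1, DEX-2, PBS-1 and PBS-2.

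Receptor and ligand UMIs were also found in the unnamed cluster led by Higd1b and Postn (339 cells), whose cells were the deepest of the clusters with 50 or more cells (a median of 33691 UMIs) and held markers of several cell types. Over all litters it held 45.6 CPM of Notch1, 28.5 CPM of Dll4 and 16.9 CPM of Jag2. It entered no test of DEX against PBS. It was among the 13 clusters outside ILC2-like cells in the Hes1 count. It was also among the 15 clusters shown for Hes1 and used for the ligand correlations.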

How the results depend on the processing

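Of 368 log2 differences of the members and called list genes recomputed under other settings, 323 were scored as unchanged and 28 as reversed. Unchanged meant the same direction and the same side of the threshold. For Hes1, Dtx1 and values with equal state shares it meant a shift under the standard deviation within groups. Changes of sign in Dtx1 were not scored, nor, with equal state shares, were those of the members except Hes1. The 28 thus leave out, for instance, Dtx1 (-0.61) and Notch1 (-0.0044) with equal state shares. Hey1 passed under every setting with a test (log2 difference 0.37 to 0.73), Hes1 lay between -0.94 and -0.68, and Dtx1 between -0.61 and 0.62. The count of called genes in ILC2-like cells (256) was 118 with DESeq2, 521 without the filter on low counts, 425 with a replicate block, 165 in cells with a Gata3 UMI, 110 after thinning, and 203 to 422 with 1 litter left out. In basophil or mast-like cells (0) it was 6 with DESeq2, 2 without the filter and 0 to 66 with 1 litter left out (66 without DEX-2). In endothelial-like cells (0) it was 1 with DESeq2, 101 without the filter, 33 with the block and 0 to 67 with 1 litter left out (67 without PBS-1). In epithelial-like cells (3) it was 7 with DESeq2, 143 without the filter, 9 with the block, 7 with MULTIseqDemux and 0 to 165 with 1 litter left out (165 without DEX-1). In mesenchymal-like cells (0) it was 87 without the filter and 8 to 167 with 1 litter left out (167 without PBS-1). For the interaction with class (6) it was 1 with RLE scaling, 85 without the filter and 22 without the Mcpt8 cluster. The causes were not tested. A litter that stood alone in its group was assumed to vary like the others.

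None of the sign changes touched a called value. In ILC2-like cells Notch1 was -0.017 with the block, -0.17 with MULTIseqDemux, -0.041 without cycling cells and -0.28 to 0.24 with 1 litter left out. Notch2 was -0.011 with MULTIseqDemux and -0.048 to 0.073 with 1 litter left out, where Jag1 was -0.024 to 0.20, and Rbpj was 0.069 after thinning. In basophil or mast-like cells Notch1 was -0.048 without the Mcpt8 cluster and -0.55 to 0.59 with 1 litter left out, and its difference between the classes was 0.081 without that cluster. In endothelial-like cells, with 1 litter left out, Notch1 was -0.44 to 0.19, Notch2 -0.017 to 1.06, Rbpj -0.39 to 0.056, Hes1 -0.80 to 0.086, Dll4 -0.65 to 0.11 and Jag2 -0.45 to 0.23, and Rbpj was 0.023 with MULTIseqDemux. In epithelial-like cells Notch2 was -0.38 to 0.26 and Rbpj -0.31 to 0.28, and in mesenchymal-like cells Notch1 was -0.26 to 0.41.

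The litters of both groups share the numbers 1 and 2, but nothing in the labels pairs them. Over 5766 genes the deviations of same-numbered litters correlated with r = 0.138 from 2 pairs. The block changed no call of a named gene. Leaving out the smaller states, giving states equal shares and leaving out the Mcpt8 cluster were chosen after seeing the data. Depth limits Dll4 and Jag2 in ILC2-like cells and Dtx1 outside the Cd7 state, and 2 litters a group limit every test.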
